A study of Mus musculus with 30 samples.

Results

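The second day of exposure to brain-derived neurotrophic factor (BDNF) was followed in cultured telencephalon of mouse embryos that lack Xbp1. The comparison set 5 dishes of Xbp1 -/- cells lysed after 48 h of BDNF against 5 dishes of the same cells lysed after 24 h, chosen by their sample titles, out of 30 dishes in the series. Both groups came from a single pool of telencephalon from 6 Xbp1 -/- embryos taken at embryonic day 12.5. The pool was spread over 15 dishes at low density in serum-free Neurobasal medium, with BDNF at 100 ng/ml added on day 3 in vitro. The 24 h dishes were lysed on day 4 and the 48 h dishes on day 5, so 1 more day of BDNF and 1 more day in culture cannot be told apart. The remaining 5 Xbp1 -/- dishes received no BDNF and were lysed on day 4 (basal). A pool of 4 Xbp1 +/+ embryos gave 15 wild-type dishes on the same plan, also with 5 per group. RNA of each dish was hybridised to 1 Affymetrix Mouse Genome 430A 2.0 array. Because all knockout dishes hold cells of 1 pool, the p-values measure the spread between dishes and not between embryos.

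XBP1 acts in the unfolded protein response: on stress in the endoplasmic reticulum (ER), its mRNA is spliced by IRE1 and the product, a transcription factor, induces chaperones and secretory pathway genes. BDNF binds the receptor TrkB, which signals through ERK, PI3 kinase and phospholipase C, and in embryonic forebrain neurons it promotes survival, neurite growth and the expression of peptides and synaptic proteins. At this embryonic stage the telencephalon holds dividing radial glia and young neurons, while astrocytes arise later. Primitive red blood cells, which carry embryonic globins, still circulate at that stage.

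Levels are given as log2 of the signal divided by the median of its array, so that 0 is the signal of a median probe set and 1 unit is a doubling. Changes are log2 differences of group means, 48 h minus 24 h, ± SE, and adjusted p-values come from limma with the Benjamini-Hochberg method over 7436 genes. "Rose" and "fell" are kept for genes with an adjusted p under 0.05. Levels of different genes rest on different probes and are not compared.

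The 10 arrays correlated with each other at 0.980 to 0.993 over all genes and no 2 were identical. At 48 h, however, replicates 1 and 2 stood apart from replicates 3 to 5. The deviations of a gene from the group mean correlated at -0.50 to -0.37 between those sets and at 0.20 between replicates 1 and 2. Replicates 3 to 5 correlated with each other at -0.08 to 0.01, and the pairs of 24 h dishes at -0.36 to -0.10. Deviations from a shared mean lean below 0 by construction. The ratio of the 3' to the 5' probe set of Gapdh, which reflects how intact and how evenly labelled the RNA was, averaged 2.80 ± 0.19 at 24 h and 2.39 ± 0.21 at 48 h (SD, n = 5, exact permutation test, two-sided, p = 0.0238, 0.0794 after adjustment over 4 array measures). The same ratio for Actb, the other such control, did not differ past the threshold. It averaged 1.70 ± 0.11 at 24 h and 1.65 ± 0.04 at 48 h (exact permutation p = 0.397, adjusted 0.397). The array median was 108 ± 11.0 signal units at 24 h and 122 ± 11.5 at 48 h (exact permutation p = 0.0952, adjusted 0.127). The share of genes at the floor of the scale was 12.8% ± 0.588 at 24 h and 14.7% ± 1.62 at 48 h (exact permutation p = 0.0397, adjusted 0.0794). For this reason counts over gene lists are set beside those from 48 h replicates 1 and 2 alone and 3 to 5 alone, and beside a fit with the Gapdh ratio as a covariate. That ratio differed between the groups in the same way as time, so time and RNA quality cannot be fully told apart in that fit.

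Defining markers of neurons and radial glia were bright in part. Neuronal Stmn2 lay between 5.66 and 6.18 on all 10 arrays, GABAergic Gad1 between 5.31 and 5.86, glutamatergic Slc17a6 between 4.13 and 4.52 and the radial glia gene Fabp7 between 5.41 and 5.92. Lower readings came from glutamatergic Neurod2 (-2.40 to -0.01) and Tbr1 (-0.53 to 0.97) and from GABAergic Dlx2 (-0.83 to 0.08) and Dlx5 (-0.92 to 0.52). Radial glia genes Nes (-1.43 to 1.28), Pax6 (0.25 to 1.02) and Hes5 (0.37 to 1.60) and neuronal Syt1 (-0.22 to 0.61) were low as well. Sox2, of radial glia too, read 3.16 to 3.67. Col1a2, a collagen gene of fibroblasts and meninges, read 6.22 to 6.50. Mature astrocyte markers Gfap, Aqp4, Slc1a2 and S100b, endothelial Cldn5, Pecam1 and Cdh5, oligodendrocyte Sox10 and microglial Cx3cr1 were below the array median on all 10 arrays. So were Olig2 and Pdgfra of the oligodendrocyte lineage and pericyte Rgs5 (-0.67 to -0.16). Olig1 (-0.39 to 0.78) and microglial C1qa (-0.11 to 0.50), C1qb (-0.01 to 0.94), Aif1 (-0.52 to 0.08) and Tyrobp (-0.42 to 0.47) lay on both sides of the array median. Above it on all 10 were myelin gene Mbp (0.50 to 1.04), microglial Csf1r (0.85 to 1.39) and pericyte Pdgfrb (0.95 to 1.78).

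The targeted gene did not separate the 2 time points. Xbp1 mRNA read 4.53, 4.63, 4.70, 4.63 and 4.63 in the 24 h dishes and 4.74, 4.67, 4.76, 4.65 and 4.87 in the 48 h dishes. These groups overlap, with a difference of 0.12 ± 0.06 (adjusted p = 0.227). Which exons the knockout lacks is not given in the sources used here, so signal from these probe sets does not test the label. Bdnf itself, the gene of the added ligand, read 1.82 ± 0.23 at 24 h and 2.13 ± 0.15 at 48 h (SD, n = 5), a difference of 0.32 ± 0.14 that did not pass (adjusted p = 0.14). Its basal level was 0.04 ± 0.31, so the greater part of the distance to the 48 h level was already present at 24 h. Ntrk2, which encodes TrkB, differed by 0.06 ± 0.08 (adjusted p = 0.666) and its direction turned with the mean of probe sets or the Gapdh covariate.

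Between 24 h and 48 h, 732 of 7436 tested genes changed in the knockout (9.84%), of which 557 rose (7.49%) and 175 fell (2.35%). Changes were small: 37 genes rose and 16 fell by at least 1.5-fold. The 5 arrays of one time did not overlap those of the other for 442 of the 732, against 639 genes (8.59%) of all tested. The count depended on a few dishes, with 348 calls without 48 h replicate 3, 419 without 48 h replicate 5, 407 without 24 h replicate 4 and 462 without 24 h replicate 1. From 48 h replicates 1 and 2 alone 113 genes were called, from replicates 3 to 5 alone 791, while 55 passed once the Gapdh ratio entered the fit. The share that rose was 76.1% here, 52.5% after quantile normalization, 46.0% after scaling to the 75th percentile and 99.3% for values as deposited, which shifted the median of all genes by 0.18. The excess of rises over falls therefore depends on the scaling.

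**Figure D1:**
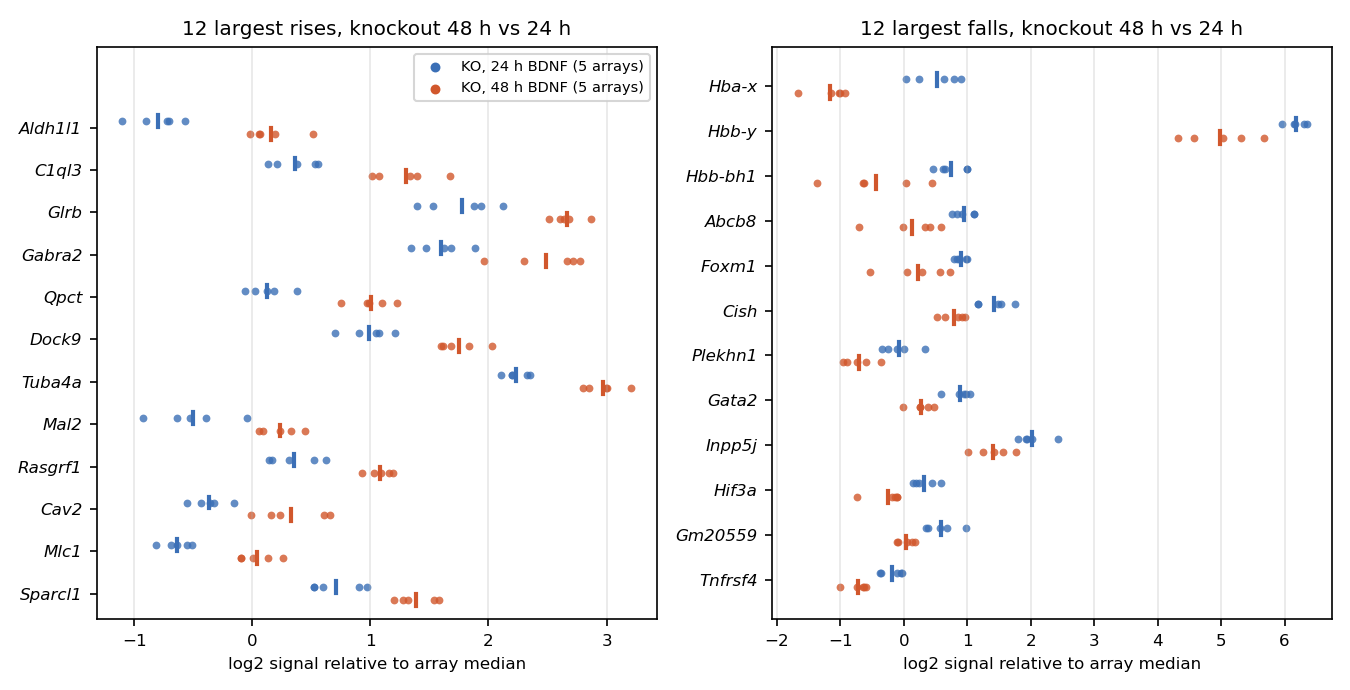
Log2 signal relative to the array median (x axis) of the 12 largest rises (left) and 12 largest falls (right) among genes that passed the threshold with no overlap, in knockout dishes after 24 h (blue) and 48 h (orange) of BDNF. Points are arrays, 5 per group, and vertical bars are means. Aldh1l1 heads the rises at 0.96 and Hba-x the falls at -1.68, and Abcb8 and Foxm1 spread more widely at 48 h than at 24 h.

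The tested receptor subunits for inhibitory transmitters rose, though not in every fit. The list of GABA-A and glycine receptor subunits held 21 genes, of which 15 were measured and 5 were bright enough to be tested. Of these 5, 4 rose and 0 fell (80%, against 9.84% of all tested genes). The median change of the 5 was 0.42, against 0.05 over all tested genes. Glrb encodes the beta subunit that anchors glycine receptors to gephyrin. It read 1.94, 1.88, 2.12, 1.53 and 1.39 in the 24 h dishes and 2.64, 2.52, 2.87, 2.60 and 2.69 in the 48 h dishes. Every 48 h dish lay above every 24 h dish, and the rise was 0.89 ± 0.10, or 1.85-fold (adjusted p = 9.90e-07). Its level at 24 h was close to the basal 1.98 ± 0.11. Gabra2, the alpha 2 subunit of early GABA-A receptors, read 1.62, 1.35, 1.89, 1.47 and 1.68 at 24 h and 2.30, 2.67, 2.77, 1.97 and 2.72 at 48 h. It rose by 0.88 ± 0.17 without overlap (adjusted p = 0.0016), though not past the threshold with the Gapdh covariate. Gabrg1 rose by 0.42 ± 0.13 (adjusted p = 0.0387) and Gabrb1 by 0.37 ± 0.11 (adjusted p = 0.0323). They passed in 11 of 24 and 17 of 25 alternatives. The remaining member, Gphn for the scaffold gephyrin, differed by 0.18 (adjusted p = 0.212). From 48 h replicates 1 and 2 alone 2 rose and 0 fell, from 3 to 5 alone 3 rose and 0 fell, and with the Gapdh covariate 1 rose. In RNA of whole dishes, a change in the number of cells of a type and a change in RNA per cell cannot be told apart, here or in what follows.

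Of 5 tested ionotropic glutamate receptor subunits, 0 passed in limma, and the differences ran from -0.20 to 0.24. With 48 h replicates 3 to 5 alone 1 rose. Among all tested genes 1891 had an unadjusted p under 0.05. Voltage-gated ion channels went both ways, with 3 of 23 rising and 2 falling (21.7% called, against 9.84% of all tested genes). Among the channels 0 rose and 0 fell with 48 h replicates 1 and 2 alone, with 3 to 5 alone 2 rose and 3 fell, and with the Gapdh covariate 0 passed in limma. Cacnb4, an auxiliary calcium channel subunit, rose by 0.44 ± 0.11, the sodium channel gene Scn2a by 0.43 ± 0.13 and Kcnip1, which encodes a partner of A-type potassium channels, by 0.35 ± 0.10. Kcnc1, a potassium channel of fast-spiking neurons, read 0.90, 0.84, 0.58, 0.94 and 0.84 at 24 h and 0.66, 0.56, 0.14, 0.05 and -0.13 at 48 h. It fell by 0.57 ± 0.12 (adjusted p = 0.00458), and 48 h replicates 3 to 5 lay lower than replicates 1 and 2.

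Part of the machinery of transmitter release rose. Of 33 tested synaptic vesicle and exocytosis genes, 10 rose and 0 fell (30.3%, against 9.84% of all tested genes), and their median change was 0.20. Snap25, a SNARE protein of vesicle fusion, read 4.37, 4.49, 4.61, 4.56 and 4.74 at 24 h and 4.94, 4.99, 5.28, 4.98 and 5.30 at 48 h. The groups were apart, and the rise of 0.54 ± 0.08 was 1.46-fold (adjusted p = 0.000137). Mal2, a membrane trafficking protein, rose by 0.73 ± 0.21 (adjusted p = 0.022), the vesicle protein gene Synpr by 0.53 ± 0.17 (adjusted p = 0.0403) and Rab3d, a GTPase of regulated secretion, by 0.44 ± 0.11 (adjusted p = 0.00979). The list's counts varied with the dishes used. With 48 h replicates 1 and 2 alone 2 rose and 0 fell, and with 3 to 5 alone 11 rose and 0 fell. Over all tested genes these subsets gave 113 and 791 calls. Snap25 lay above its 24 h mean by 0.41 in replicates 1 and 2 and by 0.63 in 3 to 5. For Mal2 these differences were 0.84 and 0.66, for Synpr 0.51 and 0.54, and for Rab3d 0.50 and 0.40. With the Gapdh covariate 0 members of the list passed while the median was 0.16. C1ql3, a secreted C1q-like protein of synapses, stood outside the lists and read 0.53, 0.38, 0.55, 0.13 and 0.21 at 24 h and 1.07, 1.02, 1.33, 1.40 and 1.68 at 48 h. All 48 h dishes were above all 24 h dishes, and it rose by 0.94 ± 0.12, or 1.92-fold (adjusted p = 8.98e-06). Its 2 dimmer probe sets differed by 0.10 and 0.18 without passing.

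**Figure D2:**
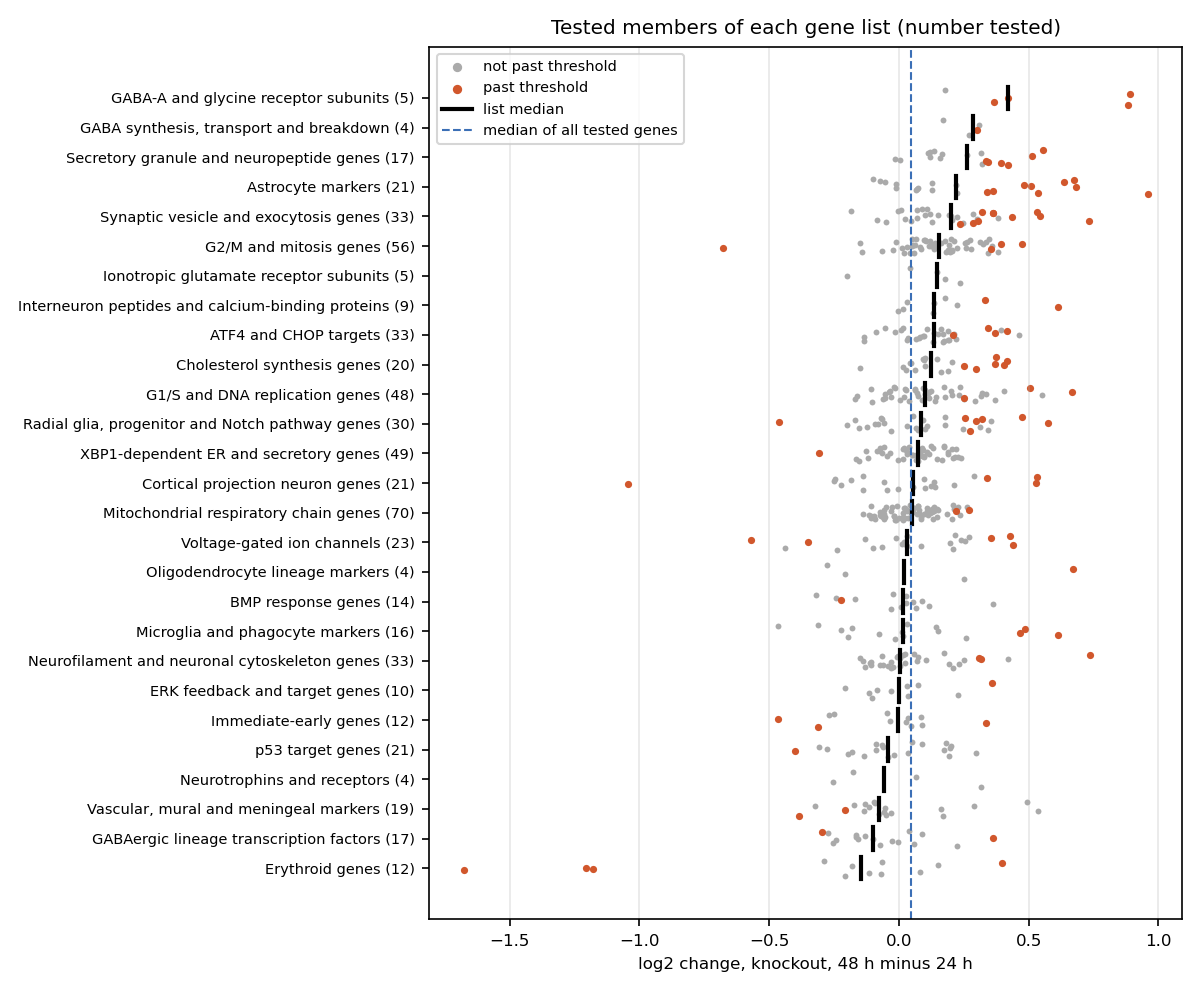
Log2 change from 24 h to 48 h in the knockout (x axis) for every tested member of 27 gene lists (rows, number tested in brackets), with members past the threshold in orange, the list median as a black bar and the median of all tested genes, 0.05, as a dashed line. GABA-A and glycine receptor subunits have the highest median, 0.42, and erythroid genes the lowest, -0.15, where the 3 globins lie far to the left.

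Of 33 tested neurofilament and cytoskeletal genes 3 rose and 0 fell, a share of 9.09% that is near the 9.84% of all tested genes, with a median of 0.00. In this list 1 rose and 0 fell with 48 h replicates 1 and 2 alone, with 3 to 5 alone 2 rose and 1 fell, and with the Gapdh covariate 1 rose. Tuba4a, an alpha-tubulin, read 2.33, 2.10, 2.20, 2.20 and 2.35 in 24 h dishes and 3.00, 2.80, 2.85, 3.00 and 3.21 in 48 h dishes. It rose by 0.74 ± 0.08 (adjusted p = 9.90e-07) with the groups well apart, and its 2 dimmer probe sets differed by 0.28 and, near the floor, by -0.74 without passing (adjusted p over all probe sets 0.0774 and 0.364). With the mean of probe sets neither Tuba4a nor C1ql3 passed. The neurofilament genes Nefl and Nefm rose by 0.32 ± 0.10 (adjusted p = 0.0355) and 0.31 ± 0.10 (adjusted p = 0.0488), from basal levels of 3.65 ± 0.12 and 1.96 ± 0.13 before BDNF. Rasgrf1 and Dock9 encode neuronal exchange factors for small GTPases. Rasgrf1 read 0.52, 0.16, 0.14, 0.31 and 0.63 at 24 h and 1.09, 1.16, 1.20, 0.93 and 1.03 at 48 h, a rise of 0.73 ± 0.11 (adjusted p = 0.00013). Dock9 read 1.21, 0.91, 1.05, 0.70 and 1.07 at 24 h and 1.84, 1.68, 2.03, 1.62 and 1.60 at 48 h, a rise of 0.77 ± 0.11 (adjusted p = 3.19e-05). In neither gene did a 24 h dish reach the lowest 48 h dish.

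Several peptide genes rose on the second day. Of 17 tested secretory granule and neuropeptide genes 6 rose and 0 fell (35.3%, against 9.84% of all tested genes), with a median of 0.26. In this list 2 rose and 0 fell with 48 h replicates 1 and 2 alone. With 3 to 5 alone 4 rose and 0 fell, and with the Gapdh covariate 0 passed. Npy, the neuropeptide Y precursor, had a basal level of 0.37 ± 0.13. It reached 2.56, 2.37, 2.47, 2.05 and 2.47 at 24 h and 3.09, 3.17, 2.92, 2.74 and 3.07 at 48 h. These dishes did not overlap, and Npy rose by 0.61 ± 0.10 on the second day (adjusted p = 0.000451). Sst, for somatostatin, rose by 0.33 ± 0.08 (adjusted p = 0.00905). Neurotensin (Nts) rose by 0.51 ± 0.11 (adjusted p = 0.00466) and PACAP (Adcyap1) by 0.42 ± 0.13 (adjusted p = 0.0324). Cartpt, the CART peptide precursor, rose by 0.39 ± 0.12 (adjusted p = 0.0355). Scg5, a chaperone of a prohormone convertase, rose by 0.55 ± 0.12 (adjusted p = 0.00363), and Qpct, the glutaminyl cyclase that caps peptides with pyroglutamate, read -0.06 to 0.38 in the 24 h dishes and 0.75 to 1.22 in the 48 h dishes and rose by 0.88 ± 0.14 (adjusted p = 0.00029). Of 9 interneuron peptide and calcium-binding protein genes only Npy and Sst passed (22.2%, against 9.84% of all tested genes). The other 7 differed by 0.00 to 0.23. With 48 h replicates 1 and 2 alone, or the Gapdh covariate, 1 of the 9 rose and Sst did not pass. With 3 to 5 alone 2 rose. Gad1, which makes most GABA, rose by 0.30 ± 0.07 (adjusted p = 0.0108), 1 of 4 tested genes of GABA synthesis and transport, but did not pass with replicates 1 and 2 alone or the Gapdh covariate.

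Immediate-early genes and ERK targets are classes that TrkB signalling is known to induce. Egr1, an immediate-early transcription factor, read 3.99, 3.92, 3.74, 3.76 and 3.79 at 24 h and 3.46, 3.36, 3.65, 3.45 and 3.73 at 48 h. It fell by 0.31 ± 0.09 (adjusted p = 0.02) with no overlap, yet stayed above its basal 2.70 ± 0.09. It did not pass with 48 h replicates 3 to 5 alone, without 48 h replicate 2, without 24 h replicate 1, with the Gapdh covariate or with values as deposited. Jund, an AP-1 subunit, fell by 0.47 ± 0.15 (adjusted p = 0.0376), with replicates 1 and 2 lowest at 48 h, and Ier3, an immediate-early gene of growth factor signalling, rose by 0.34 ± 0.09 (adjusted p = 0.0164). Ier3 read 1.77 ± 0.14 in basal dishes, near its 48 h level of 1.67 ± 0.14 (SD, n = 5). Its difference from basal to 24 h was -0.43 ± 0.09 (adjusted p = 0.0014). The other 9 of 12 tested immediate-early genes did not pass, so 25% were called, against 9.84% of all tested genes. Of the 12, 0 rose and 2 fell with 48 h replicates 1 and 2 alone, with 3 to 5 alone 1 rose and 0 fell, and with the Gapdh covariate 0 passed in limma. Spry2, a feedback inhibitor of receptor tyrosine kinase signalling, rose by 0.36 ± 0.09 (adjusted p = 0.0111). It was 1 of 10 tested ERK feedback and target genes (10%), near the 9.84% of all tested genes. It did not pass with replicates 1 and 2 alone or the Gapdh covariate.

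Part of the astrocyte genes rose while mature markers of these cells remained below the array median. Of 21 tested astrocyte markers 9 rose and 0 fell (42.9%, against 9.84% of all tested genes), with a median of 0.22. Differences above 0 were 16 of 21, where 61.6% of all tested genes had one. Aldh1l1, a folate enzyme used as a marker of astrocytes, read -0.72, -1.10, -0.57, -0.90 and -0.70 at 24 h and 0.06, 0.06, -0.02, 0.51 and 0.19 at 48 h. No 24 h dish came near the lowest 48 h dish, and the rise was 0.96 ± 0.15, or 1.94-fold (adjusted p = 0.000215). A second probe set close to the floor differed by -0.54 without passing. Sparcl1, a secreted glycoprotein that promotes synapse formation, read 0.53, 0.60, 0.52, 0.90 and 0.97 at 24 h and 1.27, 1.58, 1.20, 1.32 and 1.54 at 48 h, and it rose by 0.68 ± 0.11 (adjusted p = 0.00044). Mlc1, an astrocyte membrane protein, rose by 0.68 ± 0.15 (adjusted p = 0.00425) and Slc1a3, the glutamate transporter GLAST of radial glia and astrocytes, by 0.64 ± 0.16 (adjusted p = 0.0108). The summed signal of the 35 measured markers was 185 to 194 array medians at 24 h and 195 to 217 at 48 h, and 14 of them were below the array median on all 10 arrays. With 48 h replicates 1 and 2 alone 2 rose and 0 fell, with 3 to 5 alone 9 rose and 0 fell, and with the Gapdh covariate 3 rose. The basal levels of Aldh1l1 and Sparcl1, -0.79 ± 0.20 and 0.77 ± 0.11, lay within the range of the 24 h dishes. Those of Slc1a3 and Mlc1, 0.29 ± 0.30 and -0.29 ± 0.26, lay above all 24 h dishes. For Slc1a3 and Mlc1 the differences from basal to 48 h, 0.12 ± 0.16 and 0.33 ± 0.15, did not pass (adjusted p = 0.583 and 0.0913).

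**Figure D3:**
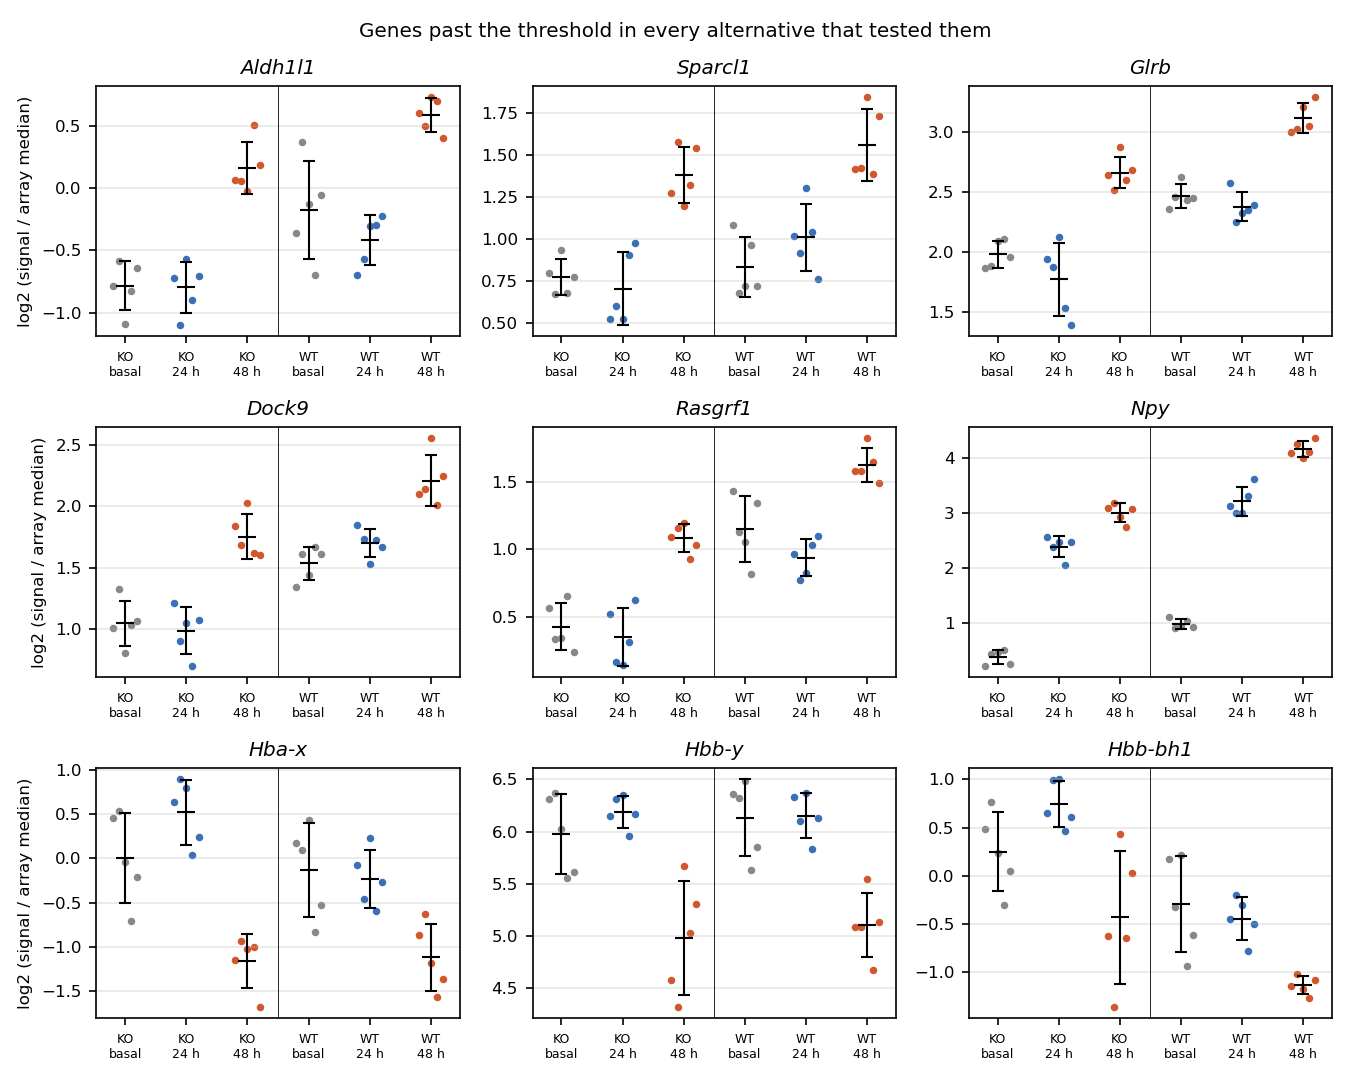
Log2 signal relative to the array median (y axis) of the 9 named genes that passed in the knockout in every alternative that tested them, in all 6 groups, with 5 arrays per group as points and mean ± SD as black bars. Aldh1l1, Sparcl1, Glrb, Dock9 and Rasgrf1 differ little between basal and 24 h in the knockout and are higher at 48 h, Npy is higher at each later time, and Hba-x, Hbb-y and Hbb-bh1 are lowest at 48 h in both genotypes.

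Among other non-neuronal classes, Olig1, a transcription factor of the oligodendrocyte lineage, rose by 0.67 ± 0.18 (adjusted p = 0.0158) with 1 overlapping dish, as 1 of 4 tested markers, but did not pass with 48 h replicates 3 to 5 alone. Of 16 microglia and phagocyte markers 3 rose (18.8%, against 9.84% of all tested genes). They were Cd68 by 0.61 ± 0.19, Ly86 by 0.48 ± 0.14 and Ctss by 0.46 ± 0.13, all of lysosomes or myeloid cells. However, the list's median was 0.01, and Cx3cr1 and P2ry12 stayed below the array median. None of the 3 passed with 48 h replicates 1 and 2 alone, with 3 to 5 alone (where 0 rose and 1 fell in the list) or with the Gapdh covariate. Ctss read 2.92 ± 0.19 in basal dishes, near its 48 h level of 2.86 ± 0.13. Its difference from basal to 24 h was -0.52 ± 0.13 (adjusted p = 0.0073). Vascular, mural and meningeal markers showed 2 falls among 19: smooth-muscle actin Acta2 fell by 0.38 ± 0.07 without overlap (adjusted p = 0.000994) and fibronectin, Fn1, by 0.21 ± 0.06 (adjusted p = 0.0361). The 2 falls made up 10.5% of the list, near the 9.84% of all tested genes. The summed signal of 33 vascular, mural and meningeal markers was 388 to 428 array medians at 24 h and 346 to 412 at 48 h. These sums overlap between the times, and their part in the other changes was not tested. Acta2 passed with either subset of 48 h dishes and with the Gapdh covariate, and Fn1 with replicates 1 and 2 alone but not in the other 2 fits. The list's median of -0.08, or 0.11 as deposited, lay at -0.12 relative to the median of all tested genes on both scales.

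Among genes whose dishes did not overlap, the 3 largest falls were those of embryonic globins. Il17re, a receptor subunit of the interleukin 17 family, changed by -1.54 ± 0.35 with overlapping dishes and was picked out after its value was seen. Hba-x encodes the zeta chain, and Hbb-y and Hbb-bh1 encode the epsilon-y and beta-h1 chains of primitive red cells. Both promoters that could be matched are shown because these genes of separate chromosomes fell together. They are the 250 bases before the start site, from RefSeq on GRCm38.p6, and 2 of the 3 genes were matched. The Hba-x promoter lies at chr11:32276350-32276599 on the plus strand and that of Hbb-y at chr7:103853208-103853457 on the minus strand. Capitals mark 4 motifs on either strand: the CCAAT box, the CACCC box known from globin promoters, GATAA as the core bound by erythroid zinc-finger factors, and ATAAA, which resembles the box that positions transcription starts. AGATAA and ATAAAA were searched first: AGATAA matched neither promoter and ATAAAA matched Hbb-y alone, at 28 bases before the start. Their shorter cores GATAA and ATAAA, which the longer motifs contain, were then chosen after the sequences had been seen. The capitals at 28 bases before the start of Hbb-y therefore cover ATAAAA.
Hba-x: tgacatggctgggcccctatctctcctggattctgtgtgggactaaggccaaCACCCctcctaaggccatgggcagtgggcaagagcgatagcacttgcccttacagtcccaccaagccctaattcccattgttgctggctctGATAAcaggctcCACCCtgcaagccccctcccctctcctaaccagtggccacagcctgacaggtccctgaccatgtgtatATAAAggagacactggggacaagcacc
Hbb-y: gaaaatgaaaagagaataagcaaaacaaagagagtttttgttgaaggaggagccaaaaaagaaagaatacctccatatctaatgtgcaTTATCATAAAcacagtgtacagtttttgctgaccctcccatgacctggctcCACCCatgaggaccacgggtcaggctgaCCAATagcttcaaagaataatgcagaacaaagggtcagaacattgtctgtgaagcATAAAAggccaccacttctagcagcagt
Each holds CACCC, at 198 and 95 bases before the start in Hba-x and at 111 in Hbb-y. GATAA, the core of GATA factor motifs, begins 107 bases before the start in Hba-x and lies on the opposite strand at 162 in Hbb-y, directly beside ATAAA at 157. ATAAA also occurs at 27 in Hba-x and 28 in Hbb-y, and CCAAT at 83 in Hbb-y. Among 32851 promoters of this length 33.8% hold CCAAT, 52.0% CACCC, 22.6% GATAA, 37.3% ATAAA, 9.99% AGATAA and 17.0% ATAAAA, so these matches are a description.

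Hba-x read 0.64, 0.89, 0.79, 0.04 and 0.24 at 24 h and -1.15, -0.94, -1.02, -1.0 and -1.68 at 48 h. Every 48 h dish was below every 24 h dish, and the fall of 1.68 ± 0.24 was 3.2-fold (adjusted p = 4.53e-05). Hbb-y, far brighter than the array median, read 6.15, 6.31, 6.35, 5.96 and 6.17 at 24 h and 4.58, 4.32, 5.67, 5.03 and 5.31 at 48 h. It fell by 1.21 ± 0.19, or 2.31-fold (adjusted p = 0.000248), and replicates 1 and 2 were the lowest at 48 h. Hbb-bh1 read 0.65, 0.99, 1.0, 0.46 and 0.61 at 24 h and -0.62, -1.36, 0.44, -0.65 and 0.03 at 48 h. It fell by 1.18 ± 0.24, or 2.26-fold (adjusted p = 0.00226), with replicate 3 at 48 h just under the lowest 24 h dish. All 3 probe sets of Hbb-y and all 3 of Hbb-bh1 fell, although probes of near-identical globins can share signal. Basal levels of Hba-x and Hbb-y were 0.01 ± 0.51 and 5.98 ± 0.38, and their differences from basal to 24 h did not pass (adjusted p = 0.165 and 0.54, where 11.5% of tested genes were called). Of 12 tested erythroid genes 4 were called (33.3%, against 9.84% of all tested genes). The 3 globins fell, and the tetraspanin Tspan33 rose by 0.40 ± 0.13 (adjusted p = 0.0486). Tfrc, for the transferrin receptor of many cell types, differed by 0.15 (adjusted p = 0.192). The summed signal of 32 measured erythroid genes was 121 to 146 array medians at 24 h and 82.4 to 112 at 48 h, and Gata1, Klf1, Alas2 and Hba-a1 were below the array median on all 10 arrays. Tspan33 itself lay below the array median on all 10 arrays. It did not pass in 15 of 23 alternatives, among them every fit with 1 knockout dish left out, both subsets of 48 h dishes and the Gapdh covariate. The list's median of -0.15, or 0.04 as deposited, lay at -0.19 relative to the median of all tested genes on both scales. The 3 globins fell with replicates 1 and 2 alone, with 3 to 5 alone and with the Gapdh covariate.

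Other large falls without overlap were those of single genes. Gata2, a GATA factor of blood progenitors and of some neurons, read 0.58, 0.95, 1.05, 0.87 and 0.98 at 24 h and 0.25, 0.38, 0.25, 0.48 and -0.02 at 48 h, a fall of 0.62 ± 0.16 (adjusted p = 0.0129). Cish, a feedback inhibitor of cytokine signalling, fell by 0.64 ± 0.17, the phosphoinositide phosphatase gene Inpp5j by 0.62 ± 0.17, Hif3a, a hypoxia-inducible factor, by 0.57 ± 0.14 and Tnfrsf4, a TNF receptor family member, by 0.54 ± 0.16. Plekhn1 and Gm20559 fell by 0.63 ± 0.20 and 0.56 ± 0.13. Abcb8, a mitochondrial transporter, fell by 0.82 ± 0.21 (adjusted p = 0.0126), but its dimmer probe set differed by 0.52 the other way without passing. Cav2, a caveolin of membrane pits, was among the largest rises at 0.69 ± 0.20 (adjusted p = 0.0292). Its probe set was below the array median in all 24 h dishes.

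Proliferation genes were called at shares near that of all tested genes (9.84%), 6.25% of the G1/S list and 7.14% of the G2/M list. Of 48 G1/S and DNA replication genes 3 rose and 0 fell (median 0.10), and of 56 G2/M genes 3 rose and 1 fell (median 0.15). With 48 h replicates 1 and 2 alone the lists gave 1 and 0 rises, and with 3 to 5 alone 1 and 6 rises, with 1 G2/M fall. Mki67, the proliferation marker Ki-67, read 2.80, 2.84, 2.89, 2.76 and 3.02 at 24 h and 3.15, 3.20, 3.46, 3.37 and 3.51 at 48 h, without overlap, and rose by 0.48 ± 0.11 (adjusted p = 0.00712). Foxm1, a transcription factor that drives mitotic genes, read 0.98, 1.0, 0.87, 0.83 and 0.79 at 24 h and 0.73, 0.57, -0.54, 0.28 and 0.04 at 48 h. It fell by 0.68 ± 0.16 (adjusted p = 0.00942), and the fall came mainly from replicates 3 to 5. The checkpoint gene Mad2l1 and the spindle gene Ckap2 rose by 0.39 ± 0.12 and 0.36 ± 0.11. Pola1, the catalytic subunit of DNA polymerase alpha, rose by 0.67 ± 0.15 (adjusted p = 0.00575), the histone mRNA binding protein gene Slbp by 0.50 ± 0.13 and Dut, which clears dUTP, by 0.25 ± 0.08, whose direction turned when probe sets were averaged. With the Gapdh covariate the medians of the G1/S and G2/M lists were -0.01 and -0.04, and 0 members of either passed in limma. Ckap2 and Pola1 read 1.51 ± 0.11 and 0.48 ± 0.18 in basal dishes, near their 48 h levels of 1.49 ± 0.18 and 0.62 ± 0.14. Their differences from basal to 24 h were -0.37 ± 0.11 and -0.52 ± 0.15 (adjusted p = 0.0255 and 0.0224).

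Of 30 radial glia, progenitor and Notch pathway genes 6 rose and 1 fell (23.3% called, against 9.84% of all tested genes). Notch2, a receptor that keeps progenitors undifferentiated, read 1.77 to 2.38 in the 24 h dishes and 2.52 to 2.84 in the 48 h dishes and rose by 0.57 ± 0.12 (adjusted p = 0.00238), while Notch3, the receptor of mural cells, fell by 0.46 ± 0.11 (adjusted p = 0.00917). Ttyh1, a chloride channel family gene of neural stem cells, rose by 0.47 ± 0.12 and Ptprz1, a phosphatase of radial glia, by 0.32 ± 0.07. The summed signal of 35 measured members was 191 to 212 array medians at 24 h and 214 to 231 at 48 h. Notch2 read 2.55 ± 0.10 in basal dishes, near its 48 h level of 2.70 ± 0.13. With 48 h replicates 1 and 2 alone, and with the Gapdh covariate, 0 members passed in limma. Id4, a BMP-responsive inhibitor of differentiation, fell by 0.22 ± 0.06 (adjusted p = 0.02), but with neither subset of 48 h dishes nor the Gapdh covariate. It was 1 of 14 BMP response genes (7.14%), against 9.84% of all tested genes.

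Transcription factors of neuronal lineages changed singly. Among cortical projection neuron genes, Tbr1 rose by 0.53 ± 0.17, Neurod6 by 0.53 ± 0.11 and Sox5 by 0.34 ± 0.08. As Neurod2 fell, 4 of 21 were called (19%, against 9.84% of all tested genes). Neurod2 read -0.23, -0.01, -0.12, -0.08 and -0.54 at 24 h and -1.50, -1.13, -2.40, -0.27 and -0.90 at 48 h. Its fall of 1.04 ± 0.27 (adjusted p = 0.0148) rests on a wide 48 h group in which replicate 4 overlapped the 24 h dishes, and it did not pass without 48 h replicate 3. Neurod6 and Sox5 read 2.01 ± 0.14 and 0.62 ± 0.10 in basal dishes, near their 48 h levels of 2.00 ± 0.21 and 0.55 ± 0.07. Their differences from basal to 24 h were -0.54 ± 0.11 and -0.40 ± 0.08 (adjusted p = 0.000957 and 0.00145). That of Tbr1 was -0.25 ± 0.17 and did not pass (adjusted p = 0.363). On the second day Tbr1 passed in 11 of 24 alternatives, and with neither subset of 48 h dishes. For this list 0 rose and 1 fell with 48 h replicates 1 and 2 alone, 4 rose and 1 fell with 3 to 5 alone, and 0 passed in limma with the Gapdh covariate. Among 17 GABAergic lineage factors Meis1 rose by 0.36 ± 0.11 and Sox6 fell by 0.30 ± 0.09, and the median was -0.10, or 0.08 as deposited, which is -0.15 relative to all tested genes on both scales. Meis1 and Sox6 made up 11.8% of the list, near the 9.84% of all tested genes. Neither gene passed with either subset of 48 h dishes or with the Gapdh covariate.

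Few genes of the pathway that Xbp1 controls changed. Of 49 tested XBP1-dependent ER and secretory genes 0 rose and 1 fell (2.04%, against 9.84% of all tested genes). Their median was 0.07, against 0.05 over all tested genes. Pdia5, a protein disulfide isomerase, read 1.06, 1.17, 1.02, 1.13 and 1.13 at 24 h and 0.77, 0.81, 0.83, 0.91 and 0.65 at 48 h. The dishes did not overlap, and it fell by 0.31 ± 0.09 (adjusted p = 0.0216), though not with either subset of 48 h dishes or the Gapdh covariate. With 3 to 5 alone 4 rose and 0 fell in the list. Of 33 targets of ATF4 and CHOP, the factors of the parallel PERK branch and of amino acid shortage, 4 rose: the amino acid transporter gene Slc1a4 by 0.42 ± 0.10, Psph of serine synthesis by 0.37 ± 0.11, the pseudokinase gene Trib3 by 0.34 ± 0.10 and Nars, asparaginyl-tRNA synthetase, by 0.21 ± 0.06. These 4 made up 12.1% of the list, near the 9.84% of all tested genes. With the Gapdh covariate, or 48 h replicates 1 and 2 alone, 0 of the 4 passed in limma. Trib3 read 1.14 ± 0.14 in basal dishes, near its 48 h level of 1.11 ± 0.14. Its difference from basal to 24 h was -0.38 ± 0.10 (adjusted p = 0.0148). Of 21 p53 targets Mdm2, the ubiquitin ligase of p53, fell by 0.40 ± 0.08 without overlap (adjusted p = 0.0019), and the other 20 did not pass. That share of 4.76% is below the 9.84% of all tested genes. Mdm2 did not pass with replicates 1 and 2 alone or with the Gapdh covariate.

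Cholesterol synthesis genes rose in part, 6 of 20 with 0 falling (30%, against 9.84% of all tested genes), at a median of 0.12. Pmvk, phosphomevalonate kinase, read 3.35, 3.27, 3.36, 3.48 and 3.47 at 24 h and 3.77, 3.68, 3.89, 3.77 and 3.90 at 48 h. It rose by 0.42 ± 0.07 (adjusted p = 0.00069) and every 48 h dish was higher. Lanosterol synthase (Lss) rose by 0.41 ± 0.09, the sterol reductase gene Tm7sf2 by 0.37 ± 0.08 and Msmo1, a sterol oxidase, by 0.37 ± 0.08. Once the Gapdh covariate entered the fit Pmvk still passed, while Lss, Tm7sf2 and Msmo1 did not. With 48 h replicates 1 and 2 alone 0 rose and 0 fell, and with 3 to 5 alone 5 rose and 0 fell. Of 70 mitochondrial respiratory chain genes 2 rose, Ndufs1 by 0.27 ± 0.08 and Ndufb3 by 0.22 ± 0.07, both of complex I. They made up 2.86% of the list, below the 9.84% of all tested genes. In this list 1 rose and 0 fell with 48 h replicates 1 and 2 alone, with 3 to 5 alone 7 rose and 0 fell, and with the Gapdh covariate 0 passed in limma.

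Wild-type dishes gave the same comparison on separate arrays. There 1034 genes changed (13.9%), 619 upwards (8.32%) and 415 downwards (5.58%). The Gapdh 3' to 5' ratio was lower at 48 h there too, at 2.40 to 2.62 against 2.67 to 3.05 at 24 h, and 13.2% to 15.8% of genes were at the floor against 11.5% to 12.99%. The part of these array measures in what the genotypes share was not tested. Of the 732 genes changed in the knockout, 708 (96.7%) had the same sign in wild type. Among the 557 rises 543 (97.5%) were above 0 in wild type, and among the 175 falls 165 (94.3%) were below 0. Over all tested genes 61.6% of changes were above 0 in the knockout and 54.3% in wild type. The share of all tested genes with the same sign in both was not counted. Of the 732, 332 passed in wild type in the same direction, which is 45.4% of the knockout calls and 32.1% of the wild-type calls. Across the 7436 genes the changes in the 2 genotypes had a Pearson r of 0.64 and a Spearman rho of 0.64, where genes are not independent replicates. In wild type Glrb rose by 0.74 ± 0.10 (adjusted p = 3.19e-05), Aldh1l1 by 1.01 ± 0.15 (adjusted p = 7.88e-05) and Npy by 0.95 ± 0.10 (adjusted p = 1.08e-06). Hba-x changed there by -0.89 ± 0.24 and Hbb-y by -1.05 ± 0.19, both past the threshold (adjusted p = 0.0121 and 0.000725). The cell-cycle lists had medians of -0.06 (G1/S) and -0.10 (G2/M) in wild type, where 0 rose and 3 and 2 fell, and no member of either passed the test of the genotype difference.

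**Figure D4:**
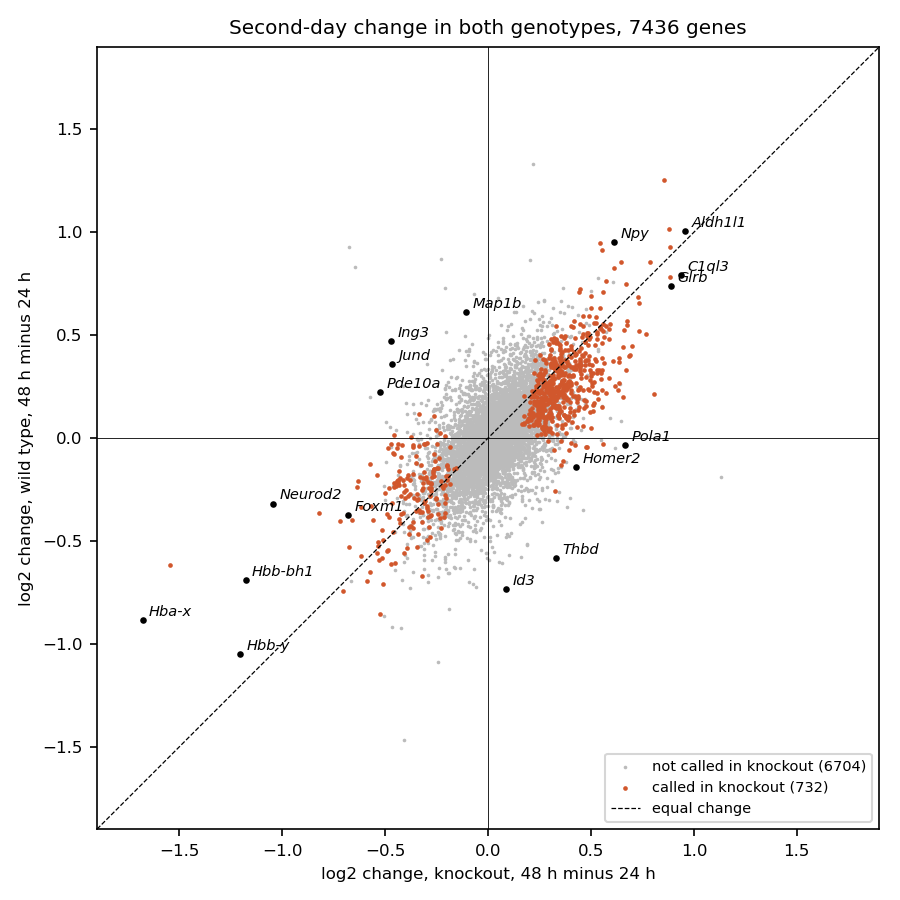
Log2 change from 24 h to 48 h in the knockout (x axis) against that in wild type (y axis) for 7436 genes, with the 732 that passed in the knockout in orange and the line of equal change dashed. Most orange points share the sign of the wild-type change. Homer2, Ing3, Jund, Pde10a, Pola1, Map1b, Id3 and Thbd lie in or at the border of the quadrants of opposite sign.

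The difference between genotypes was itself tested, and 5 of 7436 genes passed (0.0672%), with 451 at an unadjusted p under 0.05. Each genotype came from 1 pool of embryos, so genotype and pool cannot be told apart in this test. Its p-values measure the spread between dishes. Homer2, a postsynaptic scaffold for metabotropic glutamate receptors, read 2.48, 2.63, 2.50, 2.44 and 2.46 at 24 h and 2.78, 2.98, 3.02, 3.03 and 2.82 at 48 h in the knockout. It rose by 0.43 ± 0.07 there, while in wild type it went from 3.31 ± 0.12 to 3.16 ± 0.10 (SD, n = 5), and the changes differed by 0.57 ± 0.10 (adjusted p = 0.0162). Ing3, a chromatin reader of an acetyltransferase complex, fell by 0.47 ± 0.13 in the knockout and rose by 0.47 ± 0.13 in wild type, a difference of -0.94 ± 0.19 (adjusted p = 0.0323). It was the only gene that passed in opposite directions in both genotypes, and its 2 other probe sets changed by 0.19 and 0.07 in the knockout without passing.

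For the other 3 genes the second day brought a change in wild type but none past the threshold in the knockout. Map1b, a microtubule-associated protein of growing axons, read 4.93, 4.78, 5.04, 4.99 and 5.15 at 24 h and 4.67, 4.65, 4.87, 4.96 and 5.20 at 48 h in the knockout, and its wild-type mean went from 4.43 ± 0.12 to 5.04 ± 0.14. The changes differed by -0.72 ± 0.13 (adjusted p = 0.0162). Its dimmest probe set changed by 0.41 in the knockout, and the knockout value of the brightest was 0.03 with replicates 3 to 5 alone, 0.09 for the mean of probe sets and 0.08 as deposited. Id3, an inhibitor of differentiation that responds to BMP, read 2.28 to 2.71 at 24 h and 2.41 to 2.72 at 48 h in the knockout, while wild type went from 1.13 ± 0.16 to 0.40 ± 0.30, a difference of 0.82 ± 0.16 (adjusted p = 0.0323). Thbd, thrombomodulin of vessel walls, differed by 0.33 ± 0.13 in the knockout (adjusted p = 0.101) and by -0.58 ± 0.13 in wild type, so that the changes differed by 0.91 ± 0.18 (adjusted p = 0.0323). The number of genes called depended on single dishes. Without wild-type 48 h replicate 1 it was 8. It was 3 without knockout 24 h replicate 5 or wild-type 24 h replicate 2. It was 2 without knockout 24 h replicate 1, 2 or 4, knockout 48 h replicate 5 or wild-type 48 h replicate 3. It was 1 without knockout 48 h replicate 4, wild-type 24 h replicate 3 or 4, or wild-type 48 h replicate 4. Without 48 h knockout replicate 2, or without wild-type 48 h replicate 2, limma called 0 genes here, with 420 and 411 at an unadjusted p under 0.05.

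**Figure D5:**
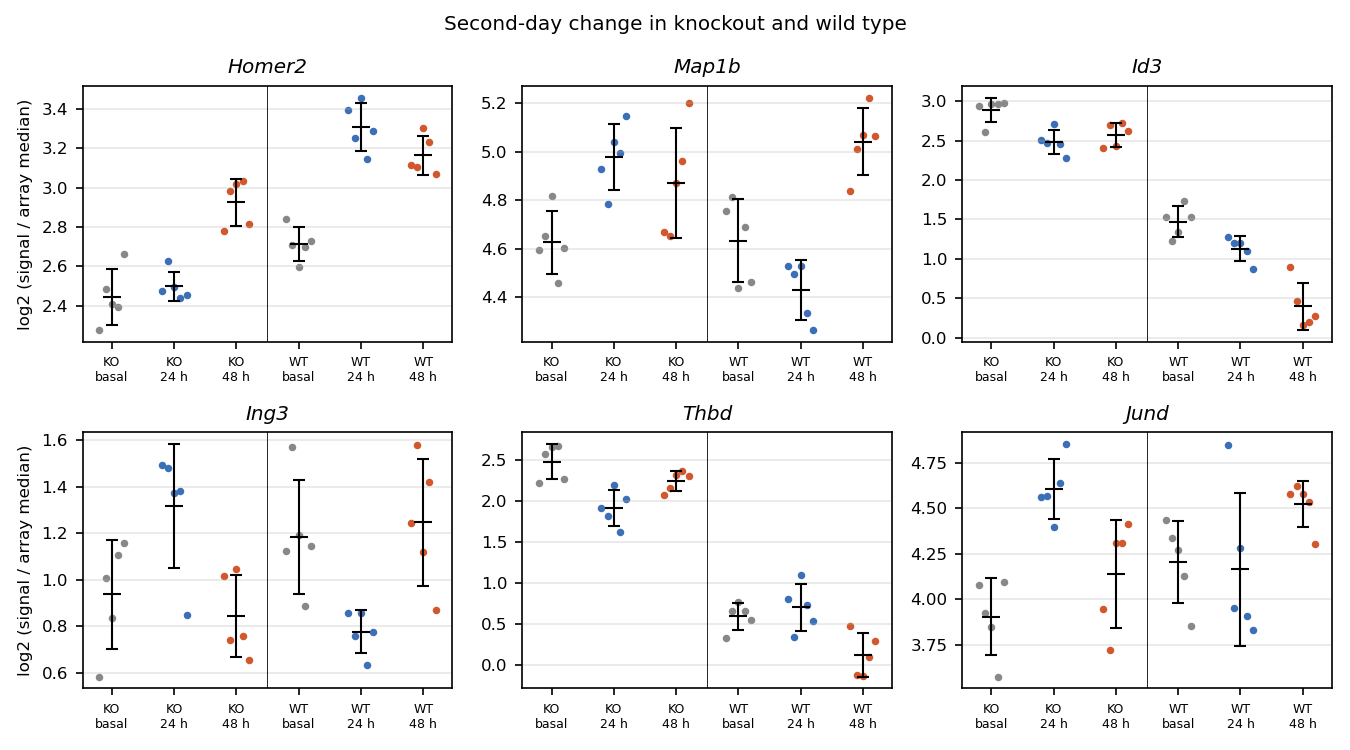
Log2 signal relative to the array median (y axis) of the 5 genes whose second-day change differed between genotypes, and of Jund, which did not pass, in all 6 groups, with 5 arrays per group as points and mean ± SD as black bars. Homer2 is higher at 48 h than at 24 h in the knockout alone, and Id3 and Thbd are lower at 48 h in wild type.

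Among genes called in the knockout, those with the smallest unadjusted p for the genotype difference after Homer2 and Ing3 did not pass. They were Pde10a, a striatal phosphodiesterase (-0.75 ± 0.16, adjusted p = 0.0838), the aminopeptidase gene Npepps (-0.45 ± 0.11, adjusted p = 0.163), Jund (-0.83 ± 0.21, adjusted p = 0.217) and Gng11, a G protein gamma subunit (0.59 ± 0.15, adjusted p = 0.271). Pde10a fell by 0.52 ± 0.12 in the knockout and Npepps by 0.33 ± 0.08, while Gng11 rose by 0.33 ± 0.11. Gng11 read 0.81 ± 0.05 in basal knockout dishes, near its 48 h level of 0.78 ± 0.13. Its difference from basal to 24 h was -0.35 ± 0.11 (adjusted p = 0.028). Hba-x, whose fall was larger in the knockout by 0.79, was not past the threshold for that difference either (adjusted p = 0.773).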

How the data were processed

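RNA of 30 dishes, 5 in each of 6 groups, had been measured on 1 array each. The deposited values are intensity signals on a linear scale that the authors made with MAS5, whose version is not given in the sources used here, for 22690 probe sets. Their division by the array median, named in the series description, is not visible in the deposited values and was applied here; their selection of probes called present was not used here. Signals under 0.1 of the median were set to 0.1 and converted to log2. Probe sets with 1 gene symbol in the platform annotation (20393) were used, and 691 with several and 1606 with none were left out. The brightest probe set stood for each of 12394 genes, and the upper 60% by mean signal, 7436, were tested.

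Group means over all 30 arrays were fitted with limma 3.58.1 in R 4.3.3 (lmFit, eBayes with an intensity trend), two-sided, with Benjamini-Hochberg adjustment within each comparison and a threshold of 0.05. The precision is limited by 5 arrays per group. The code was tested on simulated data. Named were Xbp1, Bdnf and Ntrk2, the 12 largest rises and falls without overlap, up to 4 called members of each list, all genes past the genotype difference and the 6 called genes with the smallest p for it. The comparison and the 27 lists, written from general knowledge, were chosen with earlier results of these data known. Replicate numbers did not pair the dishes, as same-numbered deviations correlated at -0.01 to 0.22. Alternatives changed the scaling, floor, filter, probe set choice, model and arrays used.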

Additional observations from a re-analysis of the deposited data

Results flagged for a closer look

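Among 188 groups of 5 dishes (94 named genes at each of 2 times), 8 held a dish far from the other 4, by Dixon's ratio of the gap to the whole range at its critical value for 5 samples. That value is set so that chance flags about 1 in 20 groups. At 24 h, Pola1 in replicate 2 read -0.83, below the others at 0.04 to 0.32, and Ing3 in replicate 5 read 0.85, below 1.37 to 1.49. Ndufs1 in 24 h replicate 1 read 3.58, below 3.82 to 3.85, and Notch3 in the same dish read 1.28, above 0.62 to 0.73. At 48 h, Sst in replicate 1 read 3.89, below 4.06 to 4.13, and Bdnf in replicate 2 read 1.87, below 2.15 to 2.25. Hif3a in 48 h replicate 3 read -0.73, below -0.18 to -0.10, and Hba-x in 48 h replicate 5 read -1.68, below -1.15 to -0.94.

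In limma the second-day change of 5 genes differed between genotypes, each of which came from 1 pool. The difference, knockout minus wild type, was 0.57 for Homer2, 0.82 for Id3, 0.91 for Thbd, -0.72 for Map1b and -0.94 for Ing3.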

How the results depend on the processing

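The 732 genes called in the knockout became 2008 with values as deposited, 1143 with array weights, 113 with 48 h replicates 1 and 2 alone, 55 with the Gapdh ratio as a covariate, 182 at an adjusted p under 0.01 and 53 at 1.5-fold or more. Leaving out 1 dish gave 348 to 698. With the replicate number as a block, 959 genes were called and the genotype difference still gave 5; same-numbered dishes share only a number, and 2 of 5 correlated best with their own. The 5 genotype differences became 3 after quantile normalization or as deposited, 1 with no filter or with the mean of probe sets, 9 with array weights or 48 h replicates 1 and 2 alone, 2 with replicates 3 to 5 alone, and 0 to 8 with 1 dish left out. Directions turned for Dut (-0.0262) and Fn1 (0.00034) with the mean of probe sets. Ntrk2 turned to -0.16 with the mean of probe sets and -0.0440 with the Gapdh covariate. Map1b turned to 0.0762 as deposited, 0.0938 with the mean of probe sets and 0.0324 with replicates 3 to 5 alone. The causes were not tested. Of 88 named genes called, 9 passed in every alternative that tested them. Genes near the floor are limited by their signal over background.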
